A study of Mus musculus with 2 samples.

Results

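The 6 transcripts described here encode a neuropeptide precursor and neuropeptide receptor subunits: Calca, Ramp1, Ramp3, Calcrl, Nmur1 and Vipr2. They were chosen by symbol, and each had 1 row among the 31053 features of both libraries. Although they were grouped under neuropeptide and adrenergic signalling, none of the 6 is an adrenergic receptor. They were measured by droplet single-cell RNA sequencing (Chromium Single Cell 3′ v2 chemistry, which counts transcript 3′ ends) in innate lymphoid cells (ILCs), the lymphocytes of tissues that lack rearranged antigen receptors. The cells, from C57BL/6 mice, were taken from the lamina propria of the small intestine and sorted as live, CD45+, Lin-, CD3-, TCRβ-, CD90.2+ and CD127+. Cells of 4 wild-type (WT) mice formed 1 pool and cells of 4 Zfp36-/- mice (knockout) formed the other, and each pool gave 1 library. The product of Zfp36, tristetraprolin (TTP), binds AU-rich elements in transcripts and speeds their decay; the labels name no Cre or cell type to which its loss was limited. The labels give neither the age nor the sex of the mice.

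Calca gives rise to calcitonin and, by alternative splicing, to calcitonin gene-related peptide (CGRP), a peptide of sensory and enteric neurons that ILC2, the type 2 ILCs, can also make. The receptor protein CALCRL reaches the cell surface with a partner of the RAMP family: with RAMP1 it forms the CGRP receptor and with RAMP3 an adrenomedullin receptor. NMUR1 is the receptor for neuromedin U, a neuronal peptide that activates ILC2, and VIPR2 (VPAC2) is a receptor for vasoactive intestinal peptide (VIP), a peptide of enteric neurons that acts on ILC2 and ILC3. CALCRL and VIPR2 couple mainly to Gs and cyclic AMP, whereas NMUR1 couples mainly to Gq and calcium.

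On mouse build GRCm38 (mm10) the genes lie at chr7:114631478-114636357 (Calca, minus strand), chr1:91179822-91225196 (Ramp1, plus strand), chr11:6658521-6677475 (Ramp3, plus strand), chr2:84330626-84425411 (Calcrl, minus strand), chr1:86386303-86426228 (Nmur1, minus strand) and chr12:116077726-116146261 (Vipr2, plus strand), per GENCODE release M21. The 3′ UTR is shown for these genes because it holds the sequences that 3′ tags read and that TTP-type proteins bind. The longest annotated 3′ UTR of each gene was searched on the transcript strand for TATTTAT, the core of the AU-rich element bound by TTP, and for the shorter ATTTA, which TATTTAT contains. Capitals mark the motif in these stretches of 30 bases, written 5′ to 3′ as DNA.
Ramp1, chr1:91224369-91224398, plus strand: cgtcaacctgggATTTAtaagcctgtttat
Ramp3, chr11:6677196-6677225, plus strand: actgagcacatcATTTAtcagacatgaagg
Calcrl, chr2:84332243-84332272, minus strand: aagatatgaaaTATTTATttaaaaatgtaa
Vipr2, chr12:116145698-116145727, plus strand: gcacctcagatgATTTAgaaaacaccacta
Calcrl was the member with TATTTAT, 1 copy in a UTR of 2828 bases that held 6 copies of ATTTA. Ramp1 (1835 bases), Ramp3 (737 bases) and Vipr2 (1951 bases) held 1 ATTTA each, and Calca (452 bases) and Nmur1 (22 bases) held neither motif. TATTTAT occurred in 27.6% of 21021 protein-coding genes with a 3′ UTR, and in 50.9% of those with a UTR within 20% of the length of Calcrl's. ATTTA occurred in 65.2% of the 21021 genes, and in 88.9%, 62.4% and 90.1% of those with UTRs of about the length of Ramp1, Ramp3 and Vipr2. These are matches of letters and not measured binding sites. The annotated Nmur1 transcripts end at most 22 bases after the stop codon, so tags from a longer UTR would not have been counted, and how this affects the Nmur1 values was not tested. The Calca counts sum calcitonin and CGRP transcripts.

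After removal of poor barcodes and predicted doublets, 3307 WT and 3249 knockout cells remained, with median depths of 5274 and 5307 unique molecular identifiers (UMIs, counted molecules). Cells were assigned to classes by minimum numbers of UMIs of marker genes, none of them a member: 2744 WT and 2491 knockout cells fell into 9 classes. The gates gave 468 WT and 924 knockout ILC2 (Il17rb, Hs3st1, Gata3, Klrg1), 90 and 137 cells positive for Cpne7 or Acbd7 with Ncr1 and Il17rb or Klrg1, 301 and 215 CCR6+ ILC3, 116 and 260 Rasl11a/Hmgn3+ ILC3 without Ccr6, 267 and 262 NCR+ ILC3, and 125 and 124 ILC1/NK cells. Rasl11a and Hmgn3 summed to 1557 and 1475 CPM in CCR6+ ILC3 and to 1339 and 1234 CPM in Rasl11a/Hmgn3+ ILC3. The absence of a Ccr6 UMI, not these markers, therefore separates the latter class from the former. Its median depths were 3927.5 and 3317.5 UMIs, so cells whose Ccr6 transcripts were missed cannot be told apart in it. Cells outside the sort's definition were also present: 34.3% of kept WT cells and 1.29% of knockout cells passed the T cell gate, and myeloid cells and B and plasma cells made up between 3.39% and 11.3% of a library. Y-linked UMIs without Xist occurred in 443 knockout cells and 0 WT cells, so the pools differed in sex as well as in genotype. With 1 library per genotype, genotype, pool, sex composition and library cannot be told apart, and no test between genotypes was possible. Levels are UMIs per 1e6 (CPM) of the summed counts of a class, with exact 95% Poisson intervals, and ratios are log2 of knockout over WT CPM, with exact 95% intervals based on how the UMIs of a gene divided between the libraries. These intervals cover counting error only, not the spread between mice or uneven distribution over cells, so each says how precisely these 2 libraries were counted.

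Zfp36, the targeted gene, was lower in the knockout in 6 of 6 ILC classes, with log2 ratios from -2.14 in NCR+ ILC3 to -0.73 in the Cpne7/Acbd7+ class. In ILC2 the WT level was 707 CPM and the knockout level 299.8 CPM. The labels do not give the deleted part of the gene, and 3′ tags can come from a transcript that lies outside it.

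Each transcript had its own distribution over the classes. Calca was held by ILC2 and Cpne7/Acbd7+ cells, which carried 65.1% of the Calca UMIs of the WT library and 71.3% of those of the knockout library. Nmur1 was even more restricted, with 75% and 73.1% of its UMIs in these classes. Ramp1 and Vipr2 were highest in the CCR6+ and the Rasl11a/Hmgn3+ ILC3, which carried 45.1% and 36.5% of the Ramp1 UMIs and 50.8% and 31.6% of the Vipr2 UMIs of the WT and knockout libraries. Ramp3 was spread over ILC2, all ILC3 subsets and T cells, and Calcrl was scarce everywhere.

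**Figure D1:**
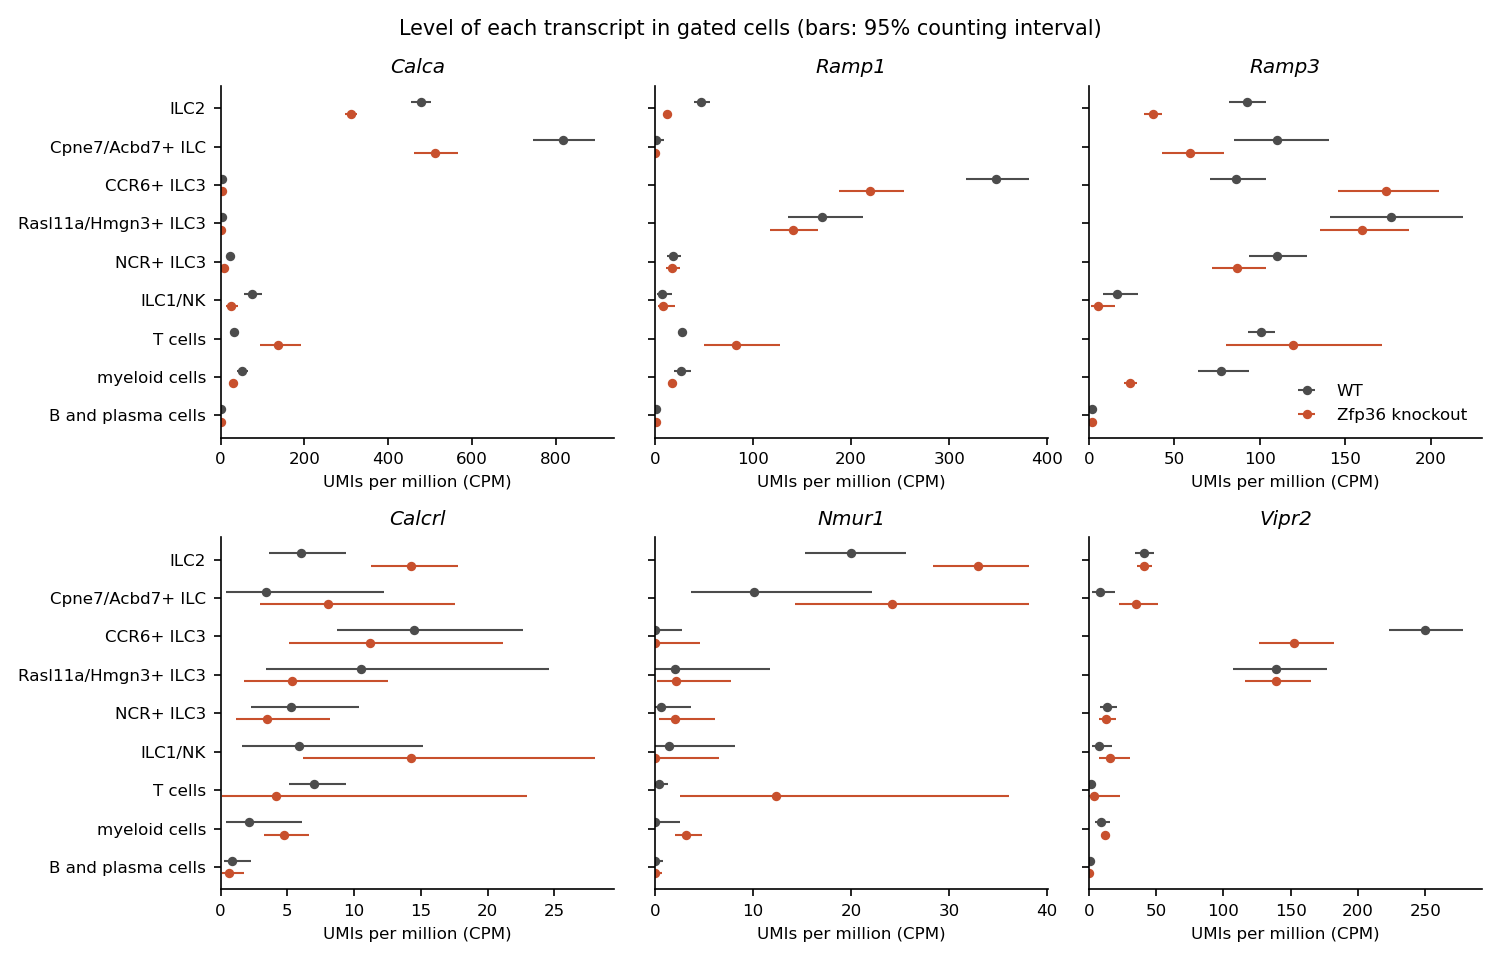
Level of each transcript in 9 gated classes of the WT library (grey) and the knockout library (orange); the horizontal axis is CPM of the class, linear and different for each panel, and bars are 95% Poisson counting intervals. Calca reaches 818 CPM in WT Cpne7/Acbd7+ cells and 479 CPM in WT ILC2, while Ramp1 and Vipr2 peak at 348 and 250 CPM in WT CCR6+ ILC3.

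Calca, the peptide precursor, was highest in Cpne7/Acbd7+ cells, at 818 CPM in WT (interval 747 to 894) and 513 CPM in the knockout (463 to 567). ILC2 came next, at 479 CPM (455 to 504) in WT and 311 CPM (296 to 326) in the knockout. The counting intervals of these classes did not overlap in either library, but they leave out uneven distribution over cells. The richest 5 WT and 7 knockout Cpne7/Acbd7+ cells carried 39.8% and 51.3% of the Calca UMIs of that class. In WT, ILC1/NK cells (75.3 CPM) and myeloid cells (51.0 CPM) followed with intervals that overlapped, and then T cells (32.6 CPM) and NCR+ ILC3 (21.7 CPM), which also overlapped. CCR6+ ILC3 held 4 Calca UMIs in WT and 2 in the knockout, Rasl11a/Hmgn3+ ILC3 held 1 and 0, and B and plasma cells held 8 and 2.

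Calca was present in a minority of the cells of its classes. With each cell thinned to 2000 UMIs, 31.7% of WT ILC2 (interval 27.5 to 36.1) and 22.4% of knockout ILC2 (19.7 to 25.2) had a Calca UMI. In Cpne7/Acbd7+ cells the shares were 43.3% (32.9 to 54.2) in WT and 30.1% (22.6 to 38.6) in the knockout. These intervals overlapped each other and those of ILC2 of the same library. The background, from B and plasma cells, was 0.769% in WT and 0.625% in the knockout, at full median depths of 38735 and 31081 UMIs against 6215 and 5793 in ILC2. Before thinning, 41.0% of WT and 30.8% of knockout ILC2 had a Calca UMI, beside 4.62% and 1.25% of B and plasma cells. Thinning took a larger part of the UMIs of the deeper B and plasma cells, which holds for every member. A few cells held much of the transcript: the richest 5% of ILC2, 24 WT and 47 knockout cells, carried 40.9% and 48.4% of the Calca UMIs of the class, with up to 49 UMIs in 1 cell. At the thinned depth, 6.03% of WT and 2.84% of knockout ILC2 had 5 or more Calca UMIs. Calca UMIs in the ILC1/NK and NCR+ ILC3 gates were in 6 to 8 cells per library, and 1 cell carried 43.1% of those of WT ILC1/NK cells.

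The receptor partners Ramp1 and Ramp3 differed from each other. Ramp1 was 348 CPM (317 to 382) in WT CCR6+ ILC3, 171 CPM (135 to 212) in WT Rasl11a/Hmgn3+ ILC3 and 47.6 CPM (40.3 to 55.8) in WT ILC2, 3 levels without overlap. WT T cells (27.7 CPM), myeloid cells (27.3 CPM) and NCR+ ILC3 (18.4 CPM) came next with overlapping intervals. Cpne7/Acbd7+ cells held 1 Ramp1 UMI in WT and 0 in the knockout, against 483 and 382 Calca UMIs in the same cells. After thinning, 45.2% of WT and 31.1% of knockout CCR6+ ILC3 had a Ramp1 UMI, against 0% of 130 WT B and plasma cells, which allows up to 2.31%, and 0.625% in the knockout. Median depths of the CCR6+ ILC3 were 4225 and 3384 UMIs.

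Ramp3 was highest in WT Rasl11a/Hmgn3+ ILC3, at 177 CPM (141 to 219). NCR+ ILC3 (110 CPM, 93.8 to 128), Cpne7/Acbd7+ cells (110 CPM, 85.0 to 140.3), T cells (101 CPM), ILC2 (92.3 CPM), CCR6+ ILC3 (86.3 CPM) and myeloid cells (77.6 CPM) formed a series in which neighbours overlapped. ILC1/NK cells (16.2 CPM) and B and plasma cells (2.19 CPM) were below all of these. In the knockout the order was different: CCR6+ ILC3 (173 CPM) and Rasl11a/Hmgn3+ ILC3 (160 CPM) overlapped at the top, and ILC2 stood at 37.3 CPM. Thinned shares of cells with a Ramp3 UMI ranged from 4.84% (ILC1/NK) to 28.1% (Rasl11a/Hmgn3+ ILC3) over the WT ILC classes, with B and plasma cells at 0.769% in WT and 1.25% in the knockout.

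Calcrl, the receptor protein that RAMP1 and RAMP3 accompany, had 130 UMIs in all kept WT cells and 187 in all knockout cells. Its WT level was 14.5 CPM (8.73 to 22.6) in CCR6+ ILC3 and 6.03 CPM (3.63 to 9.41) in ILC2, and neighbours in the order of classes overlapped throughout. Thinned shares of cells with a Calcrl UMI were 0.862% in WT ILC2, 3.06% in knockout ILC2 and at most 2.63% in any other ILC class of either library. WT B and plasma cells gave 1.54% (0.187 to 5.45) and knockout ones 0 of 160 cells, which allows up to 1.88%, so most of these shares are not above background at this depth. Within the unthinned WT CCR6+ ILC3, 17 of the 19 cells with a Calcrl UMI also had a Ramp1 UMI, and 5 of 9 did in the knockout, where 69.8% and 49.8% of all cells of the class had one. In ILC2 this was 4 of 17 WT and 7 of 69 knockout cells, beside 19.2% and 5.41% of all ILC2, and 8 of 17 and 17 of 69 had a UMI of either Ramp1 or Ramp3. For every Calcrl UMI there were 24.0 Ramp1 UMIs in WT CCR6+ ILC3 and 0.848 in knockout ILC2, a ratio that also carries the 3′ tag efficiency of each gene.

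Nmur1 was 19.99 CPM (15.4 to 25.6) in WT ILC2 and 33.0 CPM (28.4 to 38.1) in knockout ILC2. Cpne7/Acbd7+ cells had 10.2 CPM (3.73 to 22.1) and 24.2 CPM (14.3 to 38.2), overlapping with ILC2 of the same library. The CCR6+ ILC3 of both libraries held 0 Nmur1 UMIs, which allows up to 2.29 CPM in WT and 3.72 CPM in the knockout, and the remaining ILC classes held between 0 and 3 UMIs. The thinned share in ILC2 was 3.66% in WT and 6.22% in the knockout, against 0 of 130 and 0 of 160 B and plasma cells. Full-depth shares were 12.2% and 17.2%.

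Vipr2 was 250 CPM (223 to 278) in WT CCR6+ ILC3, 139 CPM (107 to 177) in WT Rasl11a/Hmgn3+ ILC3 and 40.9 CPM (34.2 to 48.6) in WT ILC2, again 3 levels without overlap. NCR+ ILC3 had 13.8 CPM, which put Vipr2 and Ramp1 alike far lower in NCR+ ILC3 than in the other ILC3 subsets. T cells of the WT library had 1.87 CPM. In the knockout the CCR6+ (152 CPM) and Rasl11a/Hmgn3+ (139 CPM) ILC3 overlapped, and ILC2 stood at 40.9 CPM. Cpne7/Acbd7+ cells held 5 Vipr2 UMIs in WT (8.47 CPM, 2.75 to 19.8) and 26 in the knockout (34.9 CPM, 22.8 to 51.1), too few for a ratio under the minimum of 50 UMIs. Thinned shares in CCR6+ ILC3 were 41.1% in WT and 27.8% in the knockout, with 0 of 130 and 0 of 160 B and plasma cells.

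**Figure D2:**
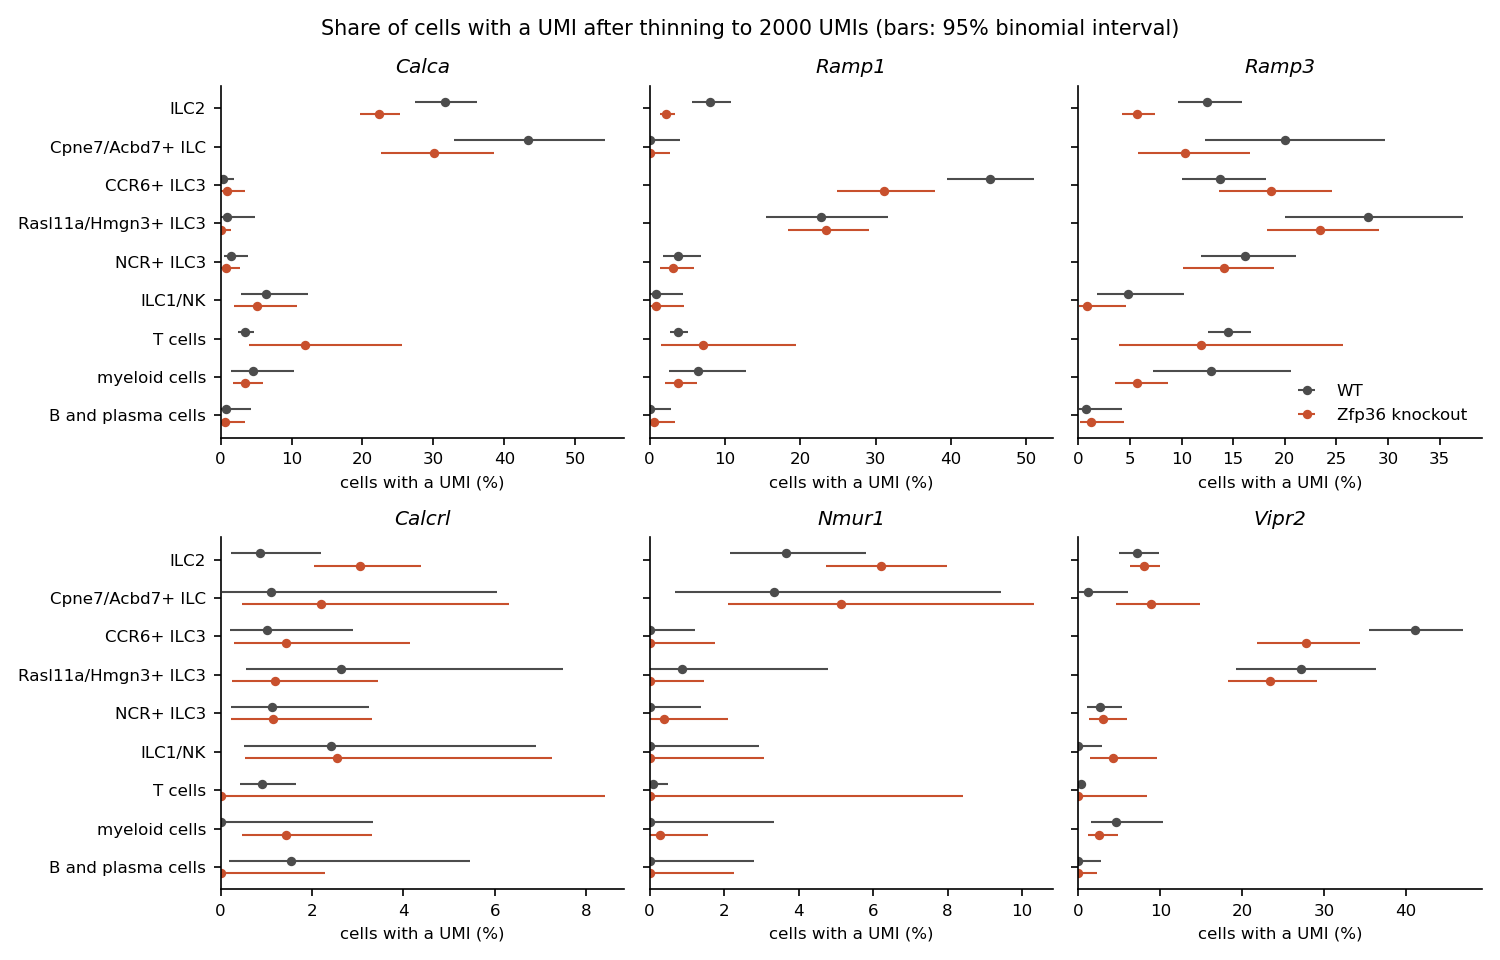
Share of cells with at least 1 UMI of each transcript after every cell was thinned to 2000 UMIs, by class and library (WT grey, knockout orange); the horizontal axis is percent of cells and differs between panels, and bars are 95% Clopper-Pearson intervals. Calca reaches 43.3% of WT Cpne7/Acbd7+ cells and 31.7% of WT ILC2, and Ramp1 and Vipr2 reach 45.2% and 41.1% of WT CCR6+ ILC3, with B and plasma cells near 0 in these panels.

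Between the libraries, the clearest differences were in ILC2. Ramp1 fell 3.94-fold there, from 47.6 to 12.1 CPM (log2 ratio -1.98, interval -2.42 to -1.55; 150 and 67 UMIs). Ramp3 fell 2.47-fold, from 92.3 to 37.3 CPM (-1.31, -1.57 to -1.04; 291 and 207 UMIs). Calcrl rose 2.36-fold, from 6.03 to 14.2 CPM (1.24, 0.50 to 2.05; 19 and 79 UMIs). Of the 6 members, all with at least 50 UMIs over both ILC2 groups, 1 reached a 2-fold increase and 2 a 2-fold decrease. Over the 8762 genes measured in ILC2, 3.58% reached 2-fold in the upward and 1.03% in the downward direction. Calca was 1.54-fold lower (-0.62, -0.72 to -0.52), Nmur1 1.65-fold higher (0.72, 0.30 to 1.16) and Vipr2 was 40.9 CPM in both (interval of the log2 ratio -0.32 to 0.32). The members' median log2 ratio was -0.31, beside 0.18 over all genes measured in ILC2, whose 5th to 95th percentiles ran from -0.49 to 0.90.

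The median log2 ratio of all genes lay at 0.14 to 0.18 in the 6 ILC classes, so ratios relative to the typical gene are lower by that amount. On that scale the ILC2 values were -0.80 for Calca, -2.15 for Ramp1, -1.48 for Ramp3, 1.06 for Calcrl, 0.55 for Nmur1 and -0.18 for Vipr2. Centring changes the counts over all genes: 314 higher and 90 lower in ILC2 became 172 and 135, 191 and 25 in Cpne7/Acbd7+ cells became 110 and 47, and 243 and 71 in CCR6+ ILC3 became 112 and 134. In Rasl11a/Hmgn3+ ILC3, 269 higher and 44 lower became 158 and 95, in NCR+ ILC3 225 and 73 became 123 and 135, and in ILC1/NK cells 194 and 41 became 112 and 81.

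The thinned shares of ILC2 moved with the levels. Ramp1 was detected in 7.97% of WT ILC2 (5.68 to 10.8) and 2.18% of knockout ILC2 (1.34 to 3.35), and Ramp3 in 12.5% (9.63 to 15.9) and 5.68% (4.27 to 7.38). The Calcrl shares of 0.862% (0.235 to 2.19) and 3.06% (2.04 to 4.39) overlapped slightly, as did those of Nmur1, 3.66% (2.15 to 5.80) and 6.22% (4.75 to 7.99). Vipr2 was in 7.11% and 7.97% of ILC2.

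ILC2 of the knockout library had a higher median mitochondrial share, 6.07% against 5.18%, and the size of 3 differences moved with that measure. Among ILC2 with at least 1000 genes and at most 5% mitochondrial UMIs, 204 WT and 186 knockout cells, the log2 ratio was -0.15 for Calca, -1.06 for Ramp1 and 0.28 for Nmur1, while Ramp3 (-1.49) and Calcrl (0.87) changed less, though Calcrl was then under the 2-fold mark. Among cells with over 5% mitochondrial UMIs, Calca was 477 CPM in WT and 280 CPM in the knockout. Among cells with at most 5%, it was 481 and 434 CPM. The part of RNA quality in these differences was not tested further.

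ILC2 also fell into clusters in different proportions. Cluster 0 held 55.1% of WT and 76.0% of knockout ILC2, and cluster 6 held 37.6% and 20.2%. Cluster 6 had more UMIs of the type 2 cytokine genes Il4, Il5 and Il13 together with Csf2, at 2799 CPM in WT and 1649 CPM in the knockout, against 722 and 502 CPM in cluster 0. Within cluster 6, Calca was 714 and 711 CPM (log2 ratio -0.01, -0.15 to 0.13). Within cluster 0 it was 301 and 209 CPM (-0.53, -0.69 to -0.37). Ramp1 was lower in the knockout in both clusters, at 24.1 and 5.36 CPM in cluster 0 and 81.6 and 33.8 CPM in cluster 6. So was Ramp3, at 59.5 and 24.4 CPM in cluster 0 and 138.8 and 80.9 CPM in cluster 6. Calcrl was higher in the knockout in both, with ratios of 1.31 (0.22 to 2.60) and 1.66 (0.58 to 2.86). Cluster 5 held 27 WT and 17 knockout ILC2. There Calca was 697 and 214 CPM (-1.71, -2.51 to -0.98) and Ramp3 90.1 and 142 CPM (0.66, -0.57 to 1.85). With the knockout clusters, including cluster 5, reweighted to the WT proportions, the class ratios became -0.24 for Calca, -1.52 for Ramp1 and -0.82 for Ramp3. The last was under the 2-fold mark.

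**Figure D3:**
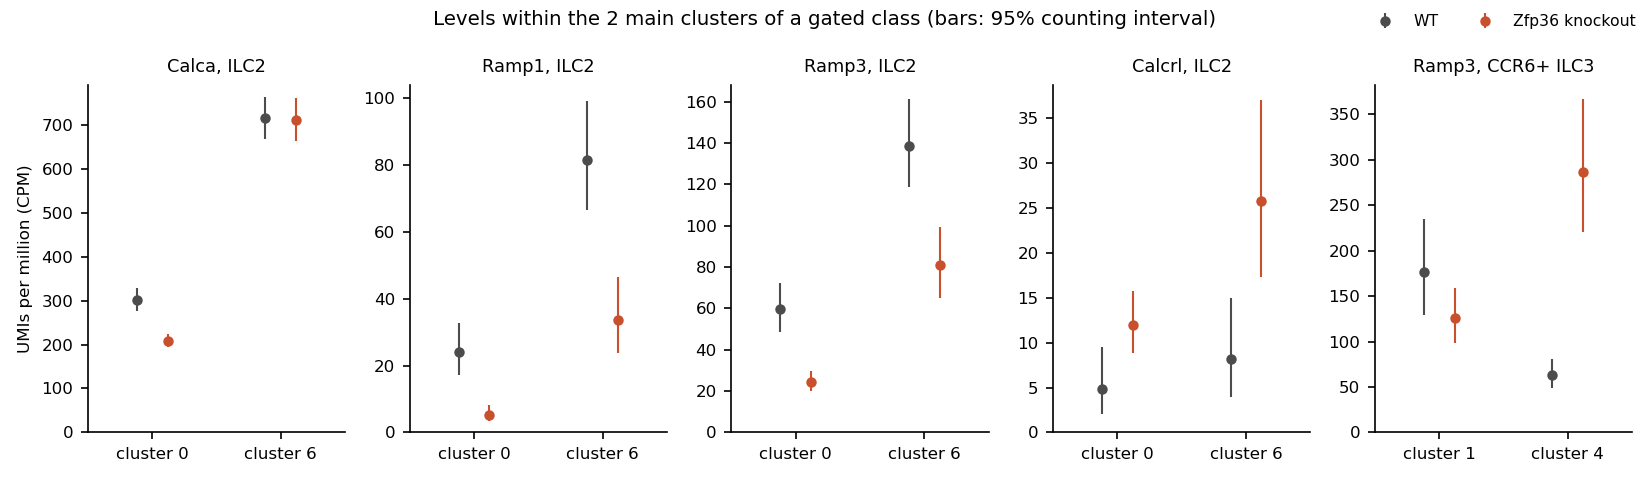
Levels of 4 members in the 2 main clusters of gated ILC2 and of Ramp3 in the 2 main clusters of gated CCR6+ ILC3; the vertical axis is UMIs per 1e6 (CPM), starts at 0 and differs between panels, points are the WT (grey) and knockout (orange) libraries and bars are 95% Poisson counting intervals. Calca is 301 and 209 CPM in cluster 0 and 714 and 711 CPM in cluster 6, and Ramp3 is 63.6 and 287 CPM in cluster 4 of CCR6+ ILC3 but 176 and 126 CPM in cluster 1.

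ILC2 were also divided by whether a thinned cell had a UMI of Il4, Il5, Il13 or Csf2. In WT, Calca was found in 31.5% of 295 cytokine-positive cells and in 32.0% of 169 cytokine-negative cells. In the knockout it was found in 25.1% (21.2 to 29.2) of 483 positive and 19.4% (15.8 to 23.4) of 433 negative cells. Calcrl in knockout ILC2 was in 4.55% (2.88 to 6.82) of cytokine-positive and 1.39% (0.510 to 2.99) of cytokine-negative cells, intervals that overlapped narrowly, and in WT the shares were 0.678% and 1.18%. Ramp3 was in 14.6% and 8.88% of WT and in 6.63% and 4.62% of knockout cells, Ramp1 in 6.44% and 10.7% and in 2.69% and 1.62%, with overlapping intervals in each pair. Nmur1 and Vipr2 shares also overlapped. Ramp3 was more frequent in ILC2 with a Calca UMI than in those without, at 19.0% (13.0 to 26.3) and 9.46% (6.48 to 13.2) in WT and 11.2% (7.25 to 16.4) and 4.08% (2.75 to 5.81) in the knockout. The WT intervals overlapped narrowly and the knockout intervals did not.

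Markers of other cells within the ILC2 gate were as follows. The T cell list summed to 2295 CPM in WT (9 of 9 genes with UMIs) and 1479 CPM in the knockout (8 of 9, Cd5 at 0), against 7752 and 4596 CPM in the T cell gate. The ILC1/NK list summed to 31.4 CPM (5 of 13 genes) and 2137 CPM (3 of 13 genes, the cytotoxic granule genes Prf1, Gzma and Gzmb), with Ncr1, Tbx21, Klrb1c and Ccl5 at 0 by the gate and Eomes at 0 in both. Of the enteroendocrine list, Tph1 alone had UMIs, and Chga, Chgb, Neurod1 and Cck were at 0. Of 7 markers of neurons and glia, 2 had UMIs, summing to 2.54 and 3.25 CPM, and Snap25, Uchl1, Sox10 and S100b were at 0. Of 4 endothelial markers, Pecam1, which lymphocytes can also express, had 77.1 and 88.0 CPM, and Cdh5, Kdr and Lyve1 were at 0. As background, Calca is known from neurons and endocrine cells and Ramp3 and Calcrl from endothelium.

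In Cpne7/Acbd7+ cells, 2 members had enough UMIs for a ratio. Calca was 818 and 513 CPM (log2 ratio -0.67, -0.87 to -0.48) and Ramp3 110 and 59.0 CPM (-0.90, -1.48 to -0.32). Neither reached a 2-fold difference, whereas 5.03% of 3799 genes did so upward and 0.658% downward. Centred on all genes Ramp3 was at -1.06, past the 2-fold mark, and with stricter gates Calca was at -1.04. The T cell list summed to 1963 CPM in WT and 1249 CPM in knockout cells of this class. Of the 5 enteroendocrine markers, 2 had UMIs in each library, summing to 8.47 and 18.8 CPM, with Chga and Neurod1 at 0 in both. Cck was 1 of them, with 4 WT and 11 knockout UMIs in this class, out of 17 in all kept cells.

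In CCR6+ ILC3, Ramp1 and Vipr2 were lower in the knockout library and Ramp3 was higher. Ramp1 was 348 and 219 CPM (-0.67, -0.92 to -0.41; 456 and 177 UMIs) and Vipr2 was 250 and 152 CPM (-0.71, -1.02 to -0.41; 327 and 123 UMIs). Ramp3 rose 2.01-fold, from 86.3 to 173 CPM (1.01, 0.64 to 1.38; 113 and 140 UMIs). Of the 3 members measured, 1 reached 2-fold upward and 0 downward, beside 3.97% and 1.16% of 6121 genes. The members' median was -0.67 and that of all genes 0.17. The Ramp3 ratio was under 1 when centred (0.84), with each cell weighted equally (0.79), without the richest 5% of cells (0.82), without ribosomal protein and mitochondrial UMIs (0.92) and in cells with Xist and no Y-linked UMIs (0.99). Among cells with at least 1000 genes and at most 5% mitochondrial UMIs, 109 WT and 52 knockout cells, Vipr2 was at -1.41, past the 2-fold mark.

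The bulk of the CCR6+ gate came from 1 cluster in WT and from another in the knockout. Cluster 4 contained 230 WT cells (76.4%) and 50 knockout cells (23.3%), and cluster 1, which also held 65 WT and 207 knockout cells of the Rasl11a/Hmgn3+ gate, held 70 (23.3%) and 164 (76.3%). Within clusters, Ramp3 was higher in the knockout in cluster 4, at 63.6 and 287 CPM (2.17, 1.65 to 2.69), whereas cluster 1 had 176 and 126 CPM (-0.48, -1.03 to 0.08). Cells of the Rasl11a/Hmgn3+ gate that lay in cluster 4, 33 WT and 20 knockout cells, had 126 and 429 CPM of Ramp3 (1.77, 0.90 to 2.68). Ramp1 was lower in cluster 4 (390 and 228 CPM; -0.78, -1.23 to -0.35) and was 191 and 217 CPM in cluster 1 (0.19, -0.30 to 0.68). Vipr2 was lower in both clusters, with ratios of -0.85 (-1.44 to -0.31) and -0.57 (-1.05 to -0.09). The Ramp3 increase within cluster 4 thus rests on 50 knockout cells of the CCR6+ gate and 20 of the Rasl11a/Hmgn3+ gate. The CCR6+ class ratio also carries the unlike cluster proportions, since WT cells of cluster 1 held more Ramp3 than those of cluster 4. Of the knockout Ramp3 UMIs of the CCR6+ gate, 73 were in cluster 1 and 63 in cluster 4.

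The share of CCR6+ ILC3 with Vipr2 was alike in cells with and without Ramp1. Vipr2 was in 41.5% of WT cells with a Ramp1 UMI and in 40.9% of those without, and in 27.7% and 27.8% of knockout cells. In WT Rasl11a/Hmgn3+ ILC3, Vipr2 was in 46.2% (26.6 to 66.6) of 26 cells with a Ramp1 UMI and 21.6% (13.5 to 31.6) of 88 without. Ramp3 was in 7.69% (0.946 to 25.1) and 34.1% (24.3 to 45.0), and the intervals of both pairs overlapped. In knockout cells of this class the corresponding shares were 28.8% and 21.8% for Vipr2 and 20.3% and 24.4% for Ramp3, with overlapping intervals.

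In Rasl11a/Hmgn3+ ILC3, no interval excluded 0: Ramp1 was 171 and 140 CPM (-0.28, -0.69 to 0.14), Ramp3 177 and 160 CPM (-0.15, -0.54 to 0.26) and Vipr2 139 and 139 CPM (0.00, -0.43 to 0.45). None of the 3 was past 2-fold, beside 5.58% of 4818 genes higher and 0.913% lower. In NCR+ ILC3, Ramp1 was 18.4 and 17.5 CPM (-0.07, -0.91 to 0.76) and Ramp3 109.8 and 86.8 CPM (-0.34, -0.69 to 0.01). Neither of these 2 was past 2-fold, beside 3.25% of 6918 genes higher and 1.06% lower. The interval of Ramp1 in NCR+ ILC3 reaches a level 1.88-fold lower. With at least 1000 genes and at most 5% mitochondrial UMIs per cell, the Ramp1 ratio turned to 0.82 in NCR+ ILC3 and to 0.77 in Rasl11a/Hmgn3+ ILC3, and Ramp3 in the latter to 0.27 (0.33 with clusters reweighted).

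In ILC1/NK cells, 1 member had enough UMIs. Calca fell 3.02-fold, from 75.3 to 24.9 CPM (-1.60, -2.56 to -0.72; 51 and 14 UMIs), where 4.85% of 3997 genes reached 2-fold upward and 1.03% downward. All these UMIs were in 8 cells per library, 1 of which carried 22 of the 51 in WT, and thinned shares were 6.45% and 5.08%.

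**Figure D4:**
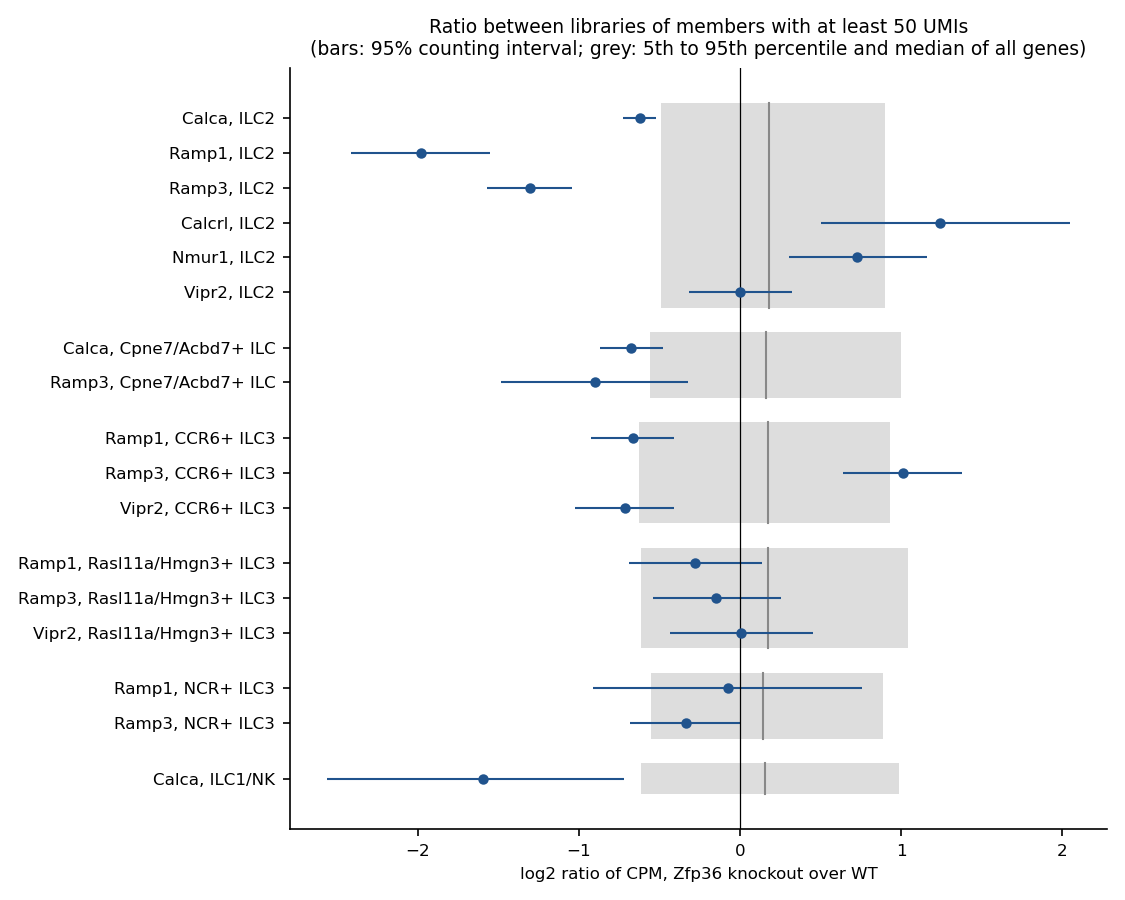
Ratio between the libraries for the 17 pairs of a member and an ILC class with at least 50 UMIs; the horizontal axis is log2 of knockout over WT CPM, bars are 95% counting intervals, and grey bands with a line show the 5th to 95th percentile and the median of all genes measured in the class. Ramp1 (-1.98) and Ramp3 (-1.31) in ILC2 and Calca in ILC1/NK cells (-1.60) lie farthest to the left, and Calcrl in ILC2 (1.24) and Ramp3 in CCR6+ ILC3 (1.01) farthest to the right.

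Over all 17 of 36 pairs of a member and an ILC class with enough UMIs, 8 intervals lay below 0, 3 above 0 and 6 included 0. Of all genes measured in a class, 8.16% to 10.28% had an interval below 0 and 19.95% to 30.03% above 0. Ramp3 had intervals below 0 in ILC2 and Cpne7/Acbd7+ cells and above 0 in CCR6+ ILC3, a difference between classes for which 1 library per genotype gives no test. Set beside the 3′ UTRs, the ILC2 ratio was 1.24 for Calcrl, which holds TATTTAT. It was -1.98 for Ramp1 and -1.31 for Ramp3, and Vipr2 was 40.9 CPM in both libraries, although all 3 hold 1 ATTTA. Calca (-0.62) and Nmur1 (0.72) differed in opposite directions and hold neither motif in the longest annotated UTR, which for Nmur1 is 22 bases. Of genes with UTRs of about the length of Nmur1 and Calca, 5.2% and 46.7% hold ATTTA. Binding was not measured, and a link between these sequences and the ratios was not tested.

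A list of 164 further genes of neuropeptide, adrenergic and other neurotransmitter signalling put the members in context. Among transcripts for the ligands of VIPR2 and NMUR1, Vip, Adcyap1 and Nmu had 0 UMIs in all kept cells and Nms had 1. Th, Dbh, Chat, Tac1 and Npy were also at 0, and 58 of the 164 genes had 0 in all. For the receptors built on CALCRL, ligand transcripts were present, Calca in ILC2 as given above and Adm in ILC3. Calcb, which encodes the other CGRP, had 6 UMIs, and Ramp2, which encodes the remaining RAMP, had 8. Adm, which encodes adrenomedullin, the ligand of CALCRL with RAMP3, fell from 74.8 to 29.7 CPM in CCR6+ ILC3 (log2 ratio -1.33, -2.04 to -0.67) and from 135 to 17.1 CPM in Rasl11a/Hmgn3+ ILC3 (-2.97, -3.86 to -2.17).

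In ILC2, 42 of the 164 genes had enough UMIs, of which 2 rose and 2 fell by 2-fold or more, beside 3.58% and 1.03% of all genes, with a median log2 ratio of 0.22 beside 0.18. Pomc, the precursor of opioid and melanocortin peptides, fell from 9.52 to 4.51 CPM (-1.08, -1.90 to -0.26). Ptgir, the prostacyclin receptor, fell from 59.3 to 28.3 CPM (-1.07, -1.38 to -0.75). Itpr3, an IP3-gated calcium channel downstream of Gq, rose from 40.3 to 84.9 CPM (1.08, 0.79 to 1.37). Pde3b, a phosphodiesterase that degrades cyclic AMP, rose from 69.5 to 141 CPM (1.02, 0.80 to 1.24). Below the 2-fold mark, Tph1, the enzyme that starts serotonin synthesis, was 31.7 and 17.5 CPM (-0.86, -1.28 to -0.44), Nmb, which encodes neuromedin B, 12.4 and 6.67 CPM (-0.89, -1.58 to -0.20), and Ret, the receptor for glial-derived neurotrophic factors, 143 and 193 CPM (0.44, 0.28 to 0.60).

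In the other classes 22 to 33 of the 164 genes had enough UMIs, and Pde3b was at least 2-fold higher in 5 of the 6 classes, all but ILC1/NK cells (106 and 123 CPM; 0.21, -0.29 to 0.71). Its ratio was 1.05 in Cpne7/Acbd7+ cells, 1.64 in CCR6+ ILC3, 1.196 in Rasl11a/Hmgn3+ ILC3 and 1.01 in NCR+ ILC3. Relative to the median of all genes, the Pde3b ratios in ILC2, Cpne7/Acbd7+ cells and NCR+ ILC3 are under 1, as are those of Itpr3 in ILC2 and NCR+ ILC3 and of Adora2a in ILC1/NK cells. Other genes at least 2-fold higher were Itpr3 in NCR+ ILC3 (1.02, 0.36 to 1.71) and, in ILC1/NK cells, the adenosine receptor Adora2a (1.12, 0.45 to 1.81) and the G protein subunit Gnaq (1.27, 0.39 to 2.20). Adm was the gene of the list that fell 2-fold or more in these classes. Ddc, an enzyme of dopamine and serotonin synthesis, was 53.4 and 29.7 CPM in CCR6+ ILC3 (-0.85, -1.58 to -0.16).

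Of the signalling arms, that of Gq had intervals above 0 for 9 of 12 measured genes in ILC2 and below 0 for 1, Prkca (49.2 and 30.8 CPM; -0.67, -0.996 to -0.35). Its median ratio was 0.39 in ILC2 and 0.48 in CCR6+ ILC3. The cyclic AMP arm had intervals above 0 for 8 of 18 genes in ILC2 and below 0 for 1, Gnas, which encodes the Gs subunit (745 and 689 CPM; -0.11, -0.19 to -0.04), with a median of 0.26. Of all 8762 genes measured in ILC2, 30.03% had an interval above 0 and 10.28% below 0. In CCR6+ ILC3, 4 of 7 Gq genes and 4 of 16 cyclic AMP genes had intervals above 0 and 1 cyclic AMP gene, Gnas, below 0 (-0.19, -0.34 to -0.04), beside 22.97% and 9.28% of 6121 genes. Medians of all genes were 0.18 and 0.17 in these classes.

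Across 18 points, the 9 classes of the 2 libraries, the genes whose log2 CPM most resembled each member were as follows, as Pearson correlations that share libraries, depth and class definitions. Calca was most like Atp8a2 (0.96), Il4 (0.96) and Pdcd1lg2 (0.92), and Nmur1 most like 9230102O04Rik (0.96), Hs3st1 (0.96, a gate marker of ILC2) and Ppp2r3a (0.96). Ramp1 was most like Eng (0.95), Pbld1 (0.94) and Ldhb (0.93), and Vipr2 most like Bmp2 (0.95), Glis2 (0.94) and Cntn1 (0.92). Ramp3 was most like Mrpl39 (0.92), Gstp3 (0.91) and Tmem156 (0.90), and Calcrl most like Casp4 (0.87), Adck2 (0.86) and Rabep2 (0.84). Among the members themselves, Calca and Nmur1 had 0.83 and Ramp1 and Vipr2 had 0.78.

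T cells of the WT library held 35.7% of its Ramp3 UMIs and were 34.3% of its kept cells. Among them, cells with Trdc and without Trac had 165 CPM (123 to 217), Cd8a+ cells 32.7 CPM (22.1 to 46.7), Foxp3+ cells 23.8 CPM (14.1 to 37.7) and the remaining T cells 124 CPM (113 to 134). Ramp1 was 105 CPM (72.2 to 147) in the 56 Trdc+ cells and 27.1 CPM in the remaining T cells. The knockout library held 42 T cells, too few to divide.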

How the data were processed

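Transcripts were counted in 2 single-cell libraries, 1 WT and 1 knockout, each from 4 pooled mice. The authors ran Cell Ranger 3.1.0 on genome build mm10, per the file headers and the submitters' processing notes, and deposited raw UMI counts per gene and barcode, without normalization. The annotation release and the strand setting of the counting are not given in the sources used here. The libraries held 3593 and 3522 barcodes and 24721524 and 27733804 UMIs, and 2 barcodes occurred in both.

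Barcodes with under 500 genes or over 10% mitochondrial UMIs were removed, as were the 3% with the highest Scrublet scores in each library (90 and 90 cells), since the automatic threshold marked 37 and 5. Gates used minimum UMIs of marker genes (T cells 3, myeloid cells 5, B cells 3, ILC2 4, ILC3 2, ILC1/NK 4, subsets 1) that were set after the data had been seen. Members, marker genes and gene lists were chosen with earlier results of these data known. Clusters came from 2000 variable genes, 30 principal components, 15 neighbours and Leiden resolution 1 (scanpy 1.11.5, leidenalg 0.10.2, Python 3.11.15, numpy 2.4.6, scipy 1.17.1).

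UMIs were summed per class, library and gene. A gene was measured with at least 50 UMIs over both libraries of a class and called at 2-fold either way. A count of 0 was given an upper limit of 3 counts. Shares of cells were taken after random thinning to 2000 UMIs per cell, without the shallower cells (at most 8 per ILC class and library), with 95% Clopper-Pearson intervals. On simulated ILC2 counts of 8762 genes, 96.2% of intervals of unchanged genes and 97.5% of those of 200 genes set 2-fold apart held the true ratio, and 98.0% of the changed genes had an interval beyond 0. Of those 200 genes, 52.0% were past 2-fold, as were 10 unchanged genes. The simulated counts were drawn as Poisson, the model behind the intervals. Their coverage therefore checks the calculation only, and uneven distribution over cells was not simulated.

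The named genes were the 6 members, genes of the context list with at least 50 UMIs over both libraries in a class, and for each member the 3 genes with the most similar log2(CPM + 10) among genes with at least 100 UMIs. Ligand genes at 0 and the scarce Calcb, Cck, Nms and Ramp2 fall outside that rule and were named after their values were seen. Of the context list, 8 genes are not reported here, 3 of them with enough UMIs. The gene Gm20658, antisense to Vipr2, had 8 UMIs in kept cells, and Gm11978, antisense to Ramp3, is not analysed here.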

Additional observations from a re-analysis of the deposited data

Results flagged for a closer look

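The Ramp3 ratio between the libraries went in opposite directions in different classes: its log2 value was 1.01 in CCR6+ ILC3, -1.31 in ILC2 and -0.90 in Cpne7/Acbd7+ cells, and the difference between the classes was not tested. Signal was also found in classes that entered no ratio, above the level in B and plasma cells of the same library. Calca was 32.6 CPM in WT T cells and 30.4 CPM in knockout myeloid cells. Ramp3 was 101 CPM in WT T cells, and Ramp1 was 17.6 CPM in knockout myeloid cells. Of the Calca UMIs of knockout myeloid cells, 208 of 219 (94.98%) were in the 73 cells that also had a UMI of an ILC2 marker, against 63 of 209 (30.1%) in WT T cells.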

How the results depend on the processing

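No paired analysis was possible because each genotype has 1 library. Of 203 alternative values of the members' ratios, 174 stayed within their counting interval and 29 moved beyond it, of which 5 changed sign: Ramp1 and Ramp3 (under 2 alternatives) in Rasl11a/Hmgn3+ ILC3, Ramp1 in NCR+ ILC3 and Calca in ILC1/NK cells. Of 51 alternative values of shares 43 stayed, of 35 of levels 28, and of 12 of the cytokine split 10. Depth limits Calcrl, Nmur1 and every ratio resting on under 100 UMIs. The fold minimum is arbitrary, and calls near it change readily. Doublets by the automatic threshold, doublets kept, all deposited barcodes, equal cell weights and leaving out ribosomal and mitochondrial genes moved no member's ratio beyond its interval.

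With at least 1000 genes and at most 5% mitochondrial UMIs, ILC2 ratios were -0.15 (Calca), -1.06 (Ramp1) and 0.28 (Nmur1), CCR6+ ILC3 ratios 1.38 (Ramp3) and -1.41 (Vipr2), Rasl11a/Hmgn3+ ILC3 ratios 0.77 (Ramp1) and 0.27 (Ramp3), the NCR+ ILC3 Ramp1 ratio 0.82 and the ILC1/NK Calca ratio -0.65. Genes at least 2-fold higher were then 129 in CCR6+, 83 in Rasl11a/Hmgn3+ and 116 in NCR+ ILC3. Cells with Xist and without Y-linked UMIs gave Calca ratios of -0.52 in ILC2 and -0.46 in Cpne7/Acbd7+ cells. Without the richest 5% of cells, ILC2 ratios were -0.82 (Calca), -5.41 (Ramp1) and -1.76 (Ramp3), and Calca was -1.01 in Cpne7/Acbd7+ cells and 0.27 in ILC1/NK cells. The Ramp1 and ILC1/NK values cannot be read, because this took away 47 of the 50 Ramp1-positive knockout ILC2 (leaving 3 UMIs) and 7 of the 8 Calca-positive ILC1/NK cells of each library (leaving 1 UMI each). With clusters reweighted, an alternative chosen after seeing the data, ILC2 ratios were -0.24 (Calca), -1.52 (Ramp1) and -0.82 (Ramp3), and Ramp3 was 1.56 in CCR6+ and 0.33 in Rasl11a/Hmgn3+ ILC3. With stricter gates, Calca was -1.04 in Cpne7/Acbd7+ cells, Ramp1 -0.95 in CCR6+ ILC3 and Ramp3 -0.93 in NCR+ ILC3, and genes at least 2-fold higher were 110, 160 and 134 in CCR6+, Rasl11a/Hmgn3+ and NCR+ ILC3. With classes taken from clusters, CCR6+ ILC3 ratios were -0.94 (Ramp1) and 1.85 (Ramp3), Ramp3 was -0.85 in NCR+ ILC3 and Calca -0.40 in ILC1/NK cells, and 126 genes were at least 2-fold lower in CCR6+ ILC3. The CCR6+ class was then cluster 4 alone, 362 WT and 118 knockout cells. It left out 164 of the 215 knockout cells of the CCR6+ gate, which lay in cluster 1, so most gated knockout cells did not enter.

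Centred on all genes, Calca in ILC2 was -0.80. Numbers of genes at least 2-fold higher and lower were then 172 higher in ILC2, and 110 and 47 (Cpne7/Acbd7+ cells), 112 and 134 (CCR6+ ILC3), 158 and 95 (Rasl11a/Hmgn3+ ILC3), 123 and 135 (NCR+ ILC3) and 112 and 81 (ILC1/NK). With no minimum of UMIs they were, in the same order of classes from ILC2 on, 845 and 1803, 1675 and 1406, 2209 and 562, 1261 and 1632, 1722 and 1155, and 1942 and 1253. With a minimum of 200 UMIs they were 127 and 41, 25 and 2, 43 and 17, 30 and 14, 38 and 24, and 15 and 9. The cause of these changes was not tested, apart from the numbers of genes, where the minimum sets how many genes enter.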

Other observations

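Outside the gates, 507 WT and 676 knockout cells carried 22.5% and 19.2% of the Calca UMIs of their libraries, beside 15.3% and 20.8% of the kept cells, and 18.5% and 30.01% of the Ramp1 UMIs. In the 42 T cells of the knockout library, Calca was 136 CPM (33 UMIs in 6 cells) and Ramp1 82.4 CPM (20 UMIs in 5 cells).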
